A study of Mus musculus with 36 samples.

Results

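The genes described here are 32 neutrophil granule and maturation genes, ordered by the stage of neutrophil development at which their products are made. Of them 5 were grouped here with the primary granule and the promyelocyte, 13 with the secondary granule and the myelocyte, 2 with the gelatinase granule, and 12 with the cytosol and surface of the mature cell. This grouping was assigned and was not tested, and a product can also lie in another granule. They were chosen by gene symbol, and each of the 32 had 1 probe set of its own among the 23410 probe sets with a gene symbol, of 35556 in all. Cells isolated as adipocytes were profiled with the Mouse Gene 1.0 ST array of Affymetrix, in bone marrow and in epididymal fat of male C57BL/6J mice, with 3 arrays in each of 12 groups. The 6 conditions, each present in both depots, were leptin-deficient ob/ob mice at 6 months on the control diet, mice on a high fat diet (HFD) at 6 and at 14 months, and mice on standard chow at 6, 14 and 18 months. Each array held RNA pooled from several mice, and both depots came from the same animals. Bone marrow adipocytes were the floating cells of flushed marrow after lysis of red cells, and epididymal adipocytes were the floating cells of a collagenase digest, so neither preparation was sorted by a surface marker. Values are on the log2 scale as deposited, 1 unit is a 2-fold difference, and a difference was called in limma where it reached 2-fold with a p, adjusted by Benjamini-Hochberg, under 0.05. Differences are given ± SE of the fit. The number of arrays limits the precision, and p-values measure the spread between pools, which may be partly technical. The fit gives each gene 1 spread over the groups of both depots. The SE and p of a bone marrow difference therefore also take in the spread of epididymal arrays.

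The label of the cells was checked against adipocyte markers. The mean log2 value of 9 adipocyte genes was between 6.65 and 8.52 in the 18 bone marrow arrays and between 11.1 and 12.6 in the 18 epididymal arrays. The gene of the adipocyte hormone adiponectin, Adipoq, spanned 6.61 to 10.45 in bone marrow, where no array reached the lowest epididymal value of 10.62. The bone marrow arrays also carried 6 erythroid genes at list means of 9.90 to 11.2, against 5.41 to 7.46 in epididymal arrays. In such bulk RNA, fewer cells of a type and less RNA per cell cannot be told apart. A set of 8 arrays stood apart from the others at 19 probe sets without a gene symbol. It comprised all 3 arrays of both depots of 6-month HFD mice, bone marrow chow array 1 and bone marrow ob/ob array 3 at 6 months. For epididymal cells at 6 months, membership of this set and the HFD cannot be told apart. A term for this set in the fit rests on bone marrow chow array 1 and ob/ob array 3 against the other arrays of their groups. In epididymal cells it therefore carries over a bone marrow difference and cannot separate the set from the HFD. A further 5 probe sets parted the 6 arrays of 18-month mice from all others, so that age and this grouping cannot be told apart either.

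Neutrophils form in the bone marrow from granulocyte-monocyte progenitors and fill their granules in a fixed order. Primary granules receive myeloperoxidase and the serine proteases at the promyelocyte stage, secondary granules receive lactoferrin, cathelicidin and lipocalin 2 at the myelocyte stage, gelatinase granules follow, and surface receptors for CXC chemokines mark the last steps before release into blood. Because transcription of granule genes ends as the cell matures, mRNA of early granule proteins marks precursor cells, whereas a mature neutrophil in tissue carries mainly mRNA of cytosolic and surface proteins.

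Several of the genes lie side by side in the mouse genome (GRCm38.p6, RefSeq). Prtn3 (chr10:79879667-79883174) and Elane (chr10:79886312-79888216) are neighbours, as are S100a8 (chr3:90669071-90670034) and S100a9 (chr3:90692630-90695721), and Stfa2 (chr16:36403946-36408363) and Stfa3 (chr16:36450537-36455392). Camp, Ngp and Ltf lie in one stretch of chromosome 9, in which Camp starts at 109847377 and Ltf ends at 111042766. RefSeq promoters, read as the 250 bases before the start site, were matched for 29 of 32 genes, and none was used for Cebpe, Hp and Mmp9. The start site is that of the promoter listed for the gene and can lie inside the gene, as for Csf3r and Cybb. The letters TTGCNNAA, as bound by C/EBP factors, and GAGGAA, as bound by PU.1, were searched on both strands, and a promoter can hold both. TTGCNNAA was present in 9 of 29 promoters (31%), against 9.55% of 27025 RefSeq promoters of the same length. GAGGAA was present in 19 of 29 (65.5%), against 23.1% of the 27025. A match is a description of letters and not of a bound site.

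The promoters of 7 genes on which the results turn are shown in lower case, 5′ to 3′ on the strand of the gene, with matches to either motif in capitals. Elane and Ngp stand for the primary and the secondary granule, Ltf holds a match to both motifs, Csf3r and Cxcr2 are receptors grouped here with the mature cell, and Stfa2 and Stfa3 are the pair called higher in ob/ob bone marrow. The 2 matches in Ngp are both of the C/EBP type and begin at -138 and -11 from the start site. In Ltf the C/EBP match begins at -75 and the PU.1 match at -157. Csf3r, Cxcr2, Elane, Stfa2 and Stfa3 each hold 1 match of the PU.1 type, at -86, -81, -85, -82 and -135. The promoter shown for Csf3r lies within the gene, which spans chr4:126023441-126044975.
Elane, chr10:79886062-79886311, plus strand: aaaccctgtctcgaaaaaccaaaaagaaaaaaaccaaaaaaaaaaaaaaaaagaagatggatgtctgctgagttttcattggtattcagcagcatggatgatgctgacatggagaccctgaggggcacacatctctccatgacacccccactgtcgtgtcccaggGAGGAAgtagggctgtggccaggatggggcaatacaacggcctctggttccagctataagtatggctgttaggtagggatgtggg
Ngp, chr9:110419558-110419807, plus strand: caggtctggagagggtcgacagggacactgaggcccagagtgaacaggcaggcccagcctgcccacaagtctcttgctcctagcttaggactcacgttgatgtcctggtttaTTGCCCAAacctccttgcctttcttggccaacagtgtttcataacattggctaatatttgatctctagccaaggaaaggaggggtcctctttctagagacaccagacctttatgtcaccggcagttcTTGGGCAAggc
Ltf, chr9:111019042-111019291, plus strand: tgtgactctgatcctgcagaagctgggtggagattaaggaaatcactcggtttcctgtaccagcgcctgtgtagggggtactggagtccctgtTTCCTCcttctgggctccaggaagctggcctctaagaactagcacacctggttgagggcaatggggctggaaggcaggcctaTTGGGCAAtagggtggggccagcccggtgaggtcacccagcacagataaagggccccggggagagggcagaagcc
Csf3r, chr4:126024409-126024658, plus strand: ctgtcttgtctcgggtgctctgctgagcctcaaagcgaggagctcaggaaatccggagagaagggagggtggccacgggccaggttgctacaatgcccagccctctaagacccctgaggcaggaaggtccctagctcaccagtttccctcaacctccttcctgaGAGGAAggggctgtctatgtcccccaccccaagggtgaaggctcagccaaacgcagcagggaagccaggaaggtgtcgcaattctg
Cxcr2, chr1:74153744-74153993, plus strand: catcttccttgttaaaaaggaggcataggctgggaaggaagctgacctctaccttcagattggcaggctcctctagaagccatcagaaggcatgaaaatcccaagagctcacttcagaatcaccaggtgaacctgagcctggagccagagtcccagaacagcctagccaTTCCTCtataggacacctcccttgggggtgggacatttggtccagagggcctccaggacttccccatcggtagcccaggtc
Stfa2, chr16:36408364-36408613, minus strand: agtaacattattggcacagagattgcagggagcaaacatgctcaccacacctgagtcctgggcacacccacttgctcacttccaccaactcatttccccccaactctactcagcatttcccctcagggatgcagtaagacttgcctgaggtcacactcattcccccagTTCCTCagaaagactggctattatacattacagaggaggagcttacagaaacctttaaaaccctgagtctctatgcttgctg
Stfa3, chr16:36455393-36455642, minus strand: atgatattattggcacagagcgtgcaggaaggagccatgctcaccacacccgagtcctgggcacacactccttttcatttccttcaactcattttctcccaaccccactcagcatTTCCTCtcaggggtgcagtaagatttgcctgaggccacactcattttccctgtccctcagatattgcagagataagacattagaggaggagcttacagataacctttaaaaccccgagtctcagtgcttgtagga

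Most of these genes had much higher values in bone marrow than in epididymal cells in every condition. The number of genes called higher in bone marrow was 29 of 32 in ob/ob mice (against 7.53% of all probe sets called higher), 29 in 6-month HFD (7.6%), 29 in 6-month chow (11.2%), 29 in 14-month HFD (10.8%), 30 in 14-month chow (9.81%) and 28 in 18-month chow (10.8%). The number called lower was 0 in 6-month HFD and 1 in every other condition. In all 6 conditions 27 genes were higher in bone marrow, by 1.41 for Lcn2 in ob/ob mice up to 8.46 for Ly6g in 6-month HFD mice. For 23 genes the median difference over the 6 conditions was above 4 on the log2 scale. The depots were prepared in different ways, so depot and preparation cannot be told apart.

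**Figure D1:**
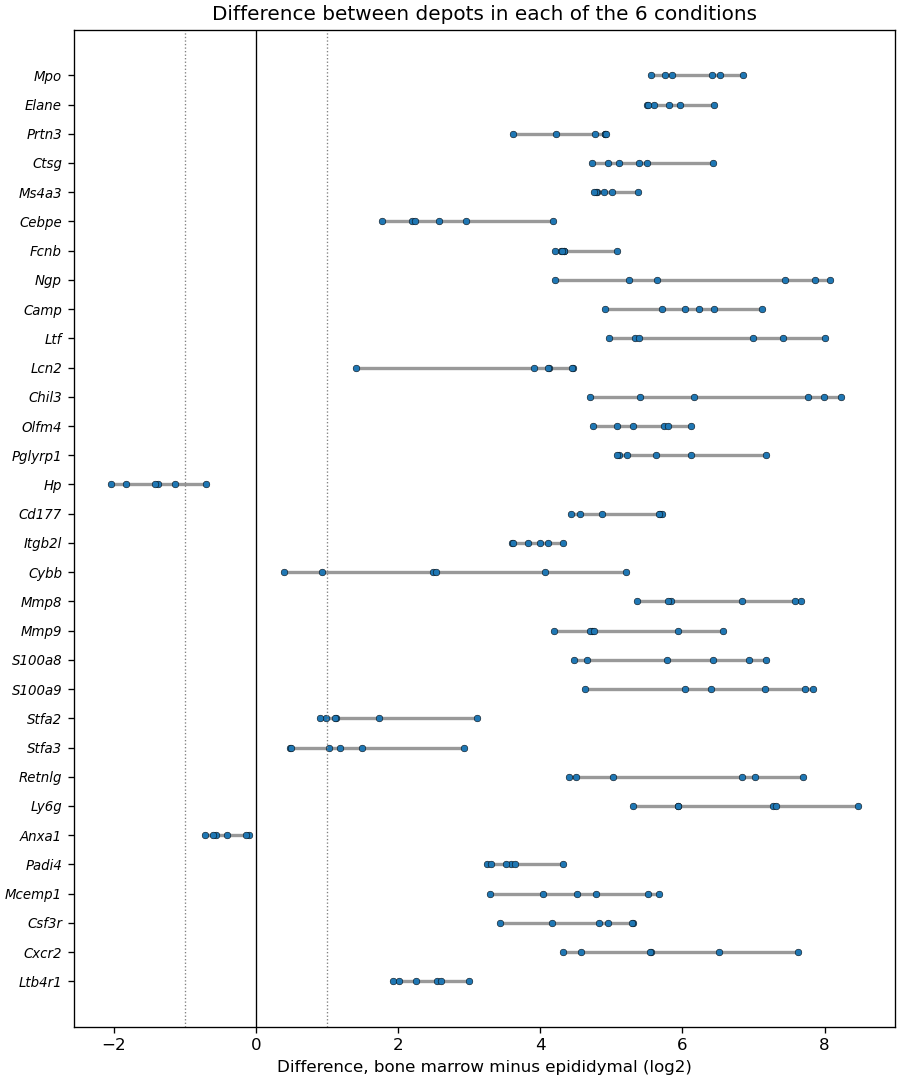
Bone marrow minus epididymal difference (log2, x axis) of each of the 32 genes (y axis, ordered by stage), with 1 point for each of the 6 conditions. Hp and Anxa1 lie below 0 in every condition, Anxa1 between -0.71 and -0.10, and the difference of Cybb runs from 0.39 to 5.20.

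Each stage of the series was represented. Among the primary granule genes, Mpo, the peroxidase that forms hypochlorous acid, was 5.55 to 6.86 higher in bone marrow. Elane, neutrophil elastase, was 5.50 to 6.45 higher, Ctsg, cathepsin G, 4.72 to 6.43, and Prtn3, proteinase 3, 3.62 to 4.92. Ms4a3, a membrane protein of granulocyte-monocyte progenitors, was 4.75 to 5.37 higher. Of the secondary granule genes, Ngp, which encodes neutrophilic granule protein, was 4.21 to 8.08 higher and Chil3, a chitinase-like protein, 4.71 to 8.23. Ltf, lactoferrin, was 4.97 to 8.0 higher and Camp, cathelicidin, 4.91 to 7.12. Cebpe, the transcription factor needed for secondary granules, was 1.77 to 4.18 higher, and Lcn2, lipocalin 2, 1.41 to 4.46. Of the 2 genes grouped with the gelatinase granule, Mmp8 was 5.36 to 7.67 and Mmp9 4.19 to 6.57 higher. At the surface of the mature cell, Ly6g was 5.31 to 8.46 higher, Cxcr2 4.31 to 7.63 and Csf3r 3.44 to 5.31.

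Among the genes that were called between the depots in all 6 conditions, 7 were not called within a depot or in a difference of differences. Mpo ranged over 11.4 to 12.4 in bone marrow arrays and 4.65 to 8.74 in epididymal arrays, and Elane over 11.2 to 12.4 in bone marrow and 5.30 to 7.90 in epididymal arrays. Olfm4, olfactomedin 4, a granule protein of a part of the neutrophils, had 9.79 to 11.3 in bone marrow and 4.56 to 6.68 in epididymal arrays. Cd177, a surface glycoprotein of neutrophils, had 10.7 to 11.8 in bone marrow and 5.42 to 8.57 in epididymal arrays. For these 4 genes, array 1 of 6-month chow mice was the highest epididymal array. Itgb2l, an integrin beta subunit related to Itgb2, had 9.31 to 10.3 in bone marrow and 5.47 to 6.72 in epididymal arrays. Padi4, the peptidylarginine deiminase that citrullinates histones in neutrophils, had 7.64 to 9.06 in bone marrow and 4.30 to 5.81 in epididymal arrays, and both genes were again highest in that epididymal array. Ltb4r1, a leukotriene B4 receptor, was 1.93 to 3.0 higher in bone marrow and was not called within a depot either.

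A few genes did not follow this pattern. Hp, haptoglobin, which adipocytes also make, was called lower in bone marrow in 5 of 6 conditions, with differences of -2.04 to -0.71 over all 6. Anxa1, annexin A1, an abundant cytosolic protein of neutrophils and of many other cells, was called in none, with differences of -0.71 to -0.10. Cybb, the gp91phox subunit of the phagocyte NADPH oxidase that macrophages share, was called higher in bone marrow in 4 of 6 conditions. Its difference was 0.39 in 6-month HFD mice (adjusted p = 0.438) and 5.20 in 18-month mice. The stefins Stfa2 and Stfa3, cytosolic inhibitors of cysteine proteases, were each called in 4 of 6, with differences of 0.91 to 3.11 and 0.48 to 2.93. Both lay below the median of all values, 5.81, in every epididymal array.

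The group means varied less across conditions in bone marrow than in epididymal cells. The 6 group means of a gene spanned a median of 0.81 in bone marrow, from 0.14 for Lcn2 to 2.28 for Stfa2, and 22 of 32 genes spanned less than 1. In epididymal cells the median span was 1.49, from 0.21 for Stfa2 to 4.87 for Cybb, and 12 genes spanned 2 or more. In bone marrow 18 genes were highest in 6-month HFD mice and 17 were lowest in 18-month mice. In epididymal cells 12 were highest in 6-month chow, 9 in ob/ob and 5 in 18-month mice, and 19 were lowest in 6-month HFD mice. These epididymal means include array 1 of 6-month chow and of ob/ob mice. In each of these arrays 27 of 32 genes were the highest of the 3 in the group, against 37.8% of all probe sets in the chow and 44.5% in the ob/ob array. Spans and rankings without them were not computed, and neither were the ranks over all probe sets.

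**Figure D2:**
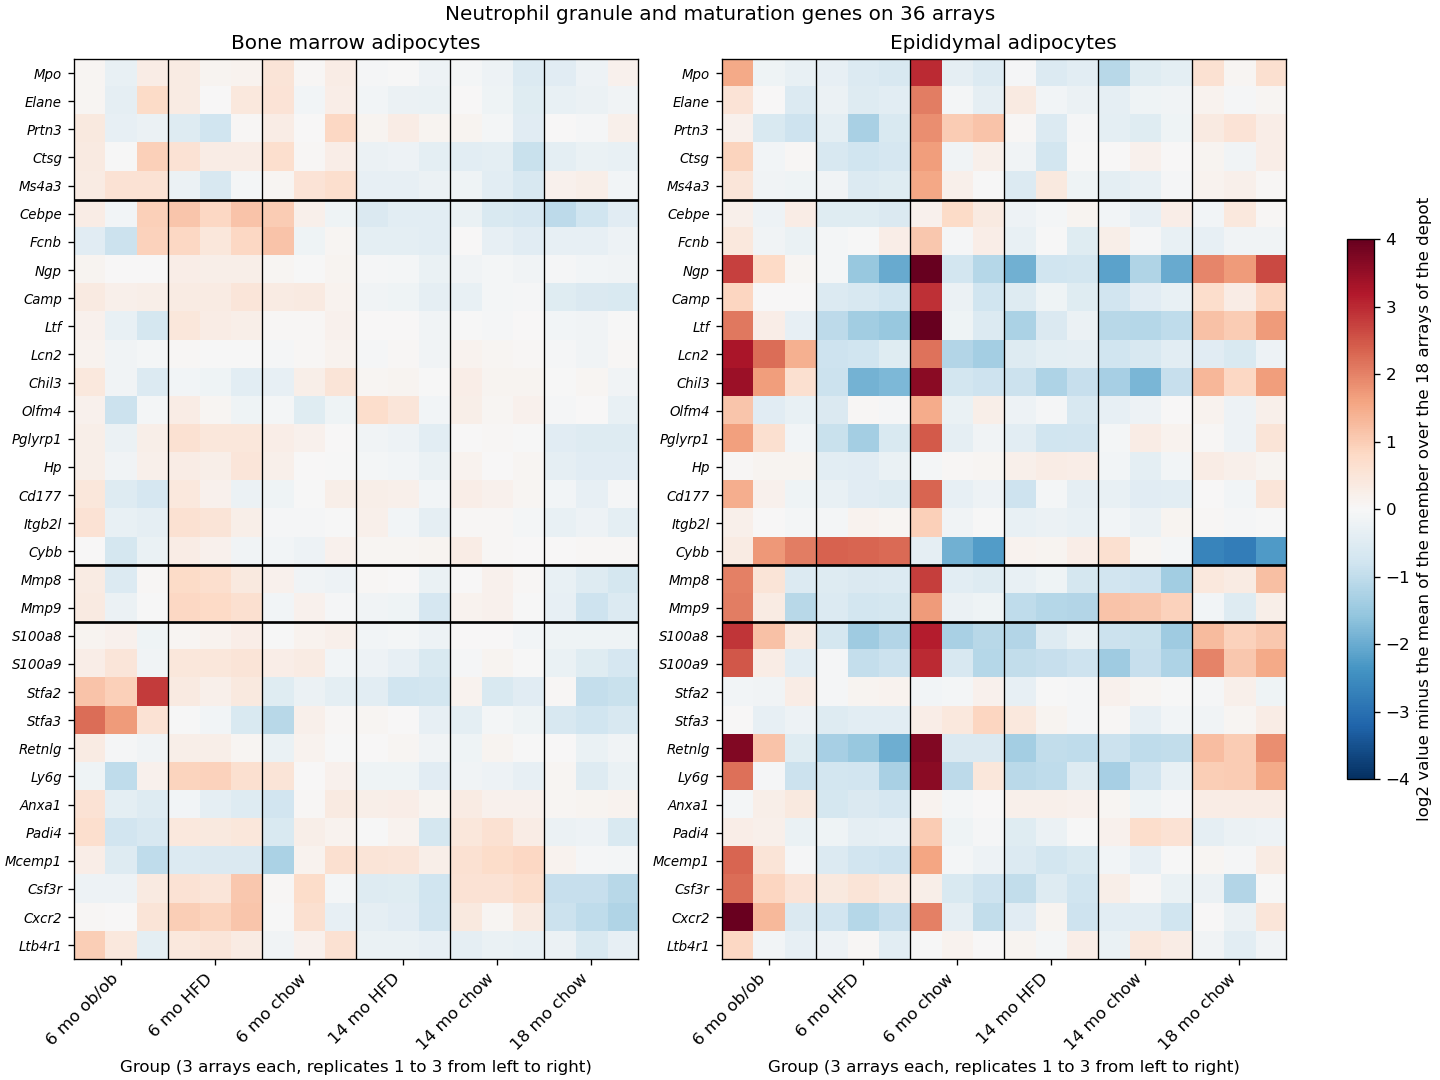
Log2 value of each of the 32 genes minus its mean over the 18 arrays of the same depot (rows, from primary granule to mature neutrophil) in the 36 arrays (columns, grouped by depot and condition). The difference between the depots is therefore not shown. The bone marrow columns are near uniform on this scale, whereas single epididymal columns, such as array 1 of 6-month chow and of ob/ob mice, are higher than the others of their group.

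In bone marrow at 6 months, the HFD was compared with chow to ask how the diet acts in young adults. None of the 32 genes was called, against 1.34% of all probe sets, and 6 had an unadjusted p under 0.05 in limma. The median difference of the 32 was 0.21, against -0.03 over all probe sets. For 12 genes all 3 HFD arrays lay above the 3 chow arrays, against 6.16% of all probe sets, and for 1, Ms4a3, they all lay below, against 8.98%. By stage the median difference was -0.09 in the primary granule, 0.23 in the secondary granule, 0.71 in the gelatinase granule and 0.27 in the mature cell. Cxcr2, a receptor for CXC chemokines that draws neutrophils out of marrow, had values of 11.75, 11.65 and 11.90 in HFD arrays and 10.76, 11.41 and 10.43 in chow arrays. The groups did not overlap, yet the difference of 0.90 missed the threshold (adjusted p = 0.499). The fit takes in epididymal arrays, where the SD of Cxcr2 reached 2.27, against 0.12 in these HFD and 0.50 in these chow arrays. Of the 17 other mature neutrophil genes 1 was higher, the Fc receptor Fcgr4, by 1.47, and of 12 progenitor and regulator genes 1 was higher, Spi1, which encodes PU.1, by 1.15. The list mean of 5 megakaryocyte and platelet genes was 7.87, 8.04 and 8.77 in HFD and 10.42, 9.44 and 10.51 in chow arrays, lower in all HFD arrays with 4 of the 5 genes called, and its part in these values was not tested.

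At 14 months the same diet comparison called 1 gene in bone marrow, Csf3r, the receptor for G-CSF, against 0.743% of all probe sets. Csf3r had values of 10.31, 10.33 and 10.01 in HFD arrays and 11.40, 11.40 and 11.52 in chow arrays. Every HFD array lay more than 1 unit below every chow array, a difference of -1.23 ± 0.30 (adjusted p = 0.023). Leaving out any 1 of these 6 arrays kept the difference between -1.28 and -1.12 and ended the call (adjusted p = 0.062 to 0.106). Fitted with only the arrays compared, the call was kept (adjusted p = 0.000576 in limma). Cxcr2 pointed the same way at 10.40, 10.31 and 10.01 in HFD and 11.18, 10.85 and 11.15 in chow arrays, without overlap, but missed the threshold at -0.81 ± 0.66 (adjusted p = 0.682). Its SD was 0.20 in these HFD and 0.18 in these chow arrays. It was 1.59 in epididymal 6-month chow and 2.27 in epididymal ob/ob arrays, which enter the same SE. Among 17 other genes of mature neutrophils 1 was called, Cxcr1, a further CXC chemokine receptor, lower at -1.26. Of 9 genes of retention and recruitment 1 was called, the chemoattractant Cxcl2, lower at -2.46. None of 12 progenitor genes and none of 11 further granule and oxidase genes was called. The mean of the erythroid list was 11.07, 11.07 and 10.94 in HFD and 10.14, 10.39 and 10.39 in chow arrays, higher in every HFD array, and its part in the result was not tested.

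Of the 32 genes 2, both stefins, were called for the leptin-deficient genotype in bone marrow, against 0.15% of all probe sets called. In the 6-month chow and HFD arrays both lay below 5.81, the median of all values, and thus at low signal. Stfa2 had values of 6.18, 5.98 and 7.81 in ob/ob, 5.37, 5.22 and 5.41 in HFD and 4.54, 4.79 and 4.64 in chow arrays at 6 months. The ob/ob arrays lay above all HFD and chow arrays of that age, with array 3 the highest, and the difference from chow was 2.0 ± 0.27 (adjusted p = 0.000524). Stfa3 had values of 7.54, 7.01 and 5.89 in ob/ob, 5.32, 5.21 and 4.72 in HFD and 4.22, 5.52 and 5.37 in chow arrays. Here array 1 was the highest and array 3 the lowest of the ob/ob arrays, all 3 were above the HFD and chow arrays, and the difference from chow was 1.77 ± 0.30 (adjusted p = 0.00303). Array 3 was thus the highest of its group for Stfa2 and the lowest for the neighbouring Stfa3. Both were also called against HFD (1.09% of all probe sets), Stfa2 at 1.32 ± 0.27 (adjusted p = 0.00729) and Stfa3 at 1.73 ± 0.30 (adjusted p = 0.00155). Both calls against chow were kept without bone marrow chow array 1 and ob/ob array 3, at 1.36 for Stfa2 and 1.83 for Stfa3, but were lost when only the arrays compared were fitted (adjusted p = 1 for both). Both calls against HFD were likewise lost when only the arrays compared were fitted (adjusted p = 0.424 for Stfa2 and 0.277 for Stfa3). With a term for the set of 8 arrays the difference of Stfa3 from HFD was 0.86, and without ob/ob array 3 that of Stfa2 was 0.74, both under 2-fold. Of the other 30 genes none was called against chow, and the median over all 32 was -0.02, against -0.01 over all probe sets. None of the 12 progenitor and regulator genes, the 11 further granule and oxidase genes, the 17 other mature neutrophil genes or the 9 retention and recruitment genes was called in this comparison.

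Age was compared on each diet. On the HFD, bone marrow of 14-month mice was lower than that of 6-month mice in 3 of 32 genes and higher in none, against 5.47% of all probe sets called. Cebpe had values of 8.28, 8.44 and 8.42 at 14 months and 9.95, 9.68 and 9.98 at 6 months, with no overlap and a difference of -1.49 ± 0.24 (adjusted p = 8.91e-05). Fcnb, ficolin B, a lectin of the myelocyte, had 9.59, 9.58 and 9.55 at 14 months and 10.82, 10.45 and 10.82 at 6 months, also without overlap (-1.12 ± 0.33, adjusted p = 0.0161). Csf3r had 10.31, 10.33 and 10.01 at 14 months and 11.37, 11.30 and 11.88 at 6 months (-1.30 ± 0.30, adjusted p = 0.00256). All 3 older arrays were below the younger ones for each of the 3 genes. Cxcr2 had 10.40, 10.31 and 10.01 at 14 months and 11.75, 11.65 and 11.90 at 6 months, also without overlap. Its difference of -1.52 was the largest fall but was not called, nor was Mmp9 at -1.09. Of the 32 differences 7 were above 0. With only the arrays compared 6 genes were called lower, Cebpe, Fcnb and Csf3r among them. The 6-month arrays all belonged to the set of 8, and with a term for that set none of Cebpe, Fcnb and Csf3r was called. Cebpe was then at -0.57 (adjusted p = 0.22), Fcnb at 0.27 (adjusted p = 0.771) and Csf3r at -1.17 (adjusted p = 0.14), while Stfa3 at -1.14 and Ltb4r1 at -1.52 were called in their place. Fcnb also lost its call without HFD array 3 of the 6-month mice (adjusted p = 0.0591). Among the regulators Spi1 was lower at -1.89 and Cebpd at -1.31 in 14-month mice, 2 of 12, and of 17 other mature neutrophil genes 3 were lower, Fcgr3 at -1.54, Bst1 at -1.65 and Ceacam1 at -1.24. The megakaryocyte and platelet list mean was 9.16, 9.23 and 9.71 at 14 months and 7.87, 8.04 and 8.77 at 6 months, higher in all 14-month arrays with 3 of 5 genes called higher. The adipocyte list mean was 6.86, 6.98 and 7.22 at 14 months and 7.24, 7.24 and 7.71 at 6 months, lower in all 14-month arrays with 1 of 9 genes called lower. Their part in these differences was not tested.

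On chow, 14-month against 6-month bone marrow gave no call among the 32 genes (1.18% of all probe sets). Cebpe came nearest, with 8.59, 8.25 and 8.17 at 14 months and 9.87, 9.06 and 8.70 at 6 months, a difference of -0.87 ± 0.24 (adjusted p = 0.0304) that was below 2-fold. At 18 months 2 genes were lower than at 6 months (0.991% of all probe sets). Cebpe, at 7.81, 8.07 and 8.39 in 18-month arrays, differed from 6 months by -1.12 ± 0.24 (adjusted p = 0.00396). Csf3r had values of 10.87, 11.55 and 10.73 at 6 months, 11.40, 11.40 and 11.52 at 14 months and 9.89, 9.88 and 9.70 at 18 months. The 18-month arrays were the lowest and did not overlap either younger group, with differences of -1.22 ± 0.31 (adjusted p = 0.0152) from 6 months and -1.61 ± 0.31 (adjusted p = 0.000589) from 14 months. Fitted with only the arrays compared, neither 18-month call against 6 months was kept (adjusted p = 0.127 for Cebpe and 0.0534 for Csf3r), and with the term for the set of 8 arrays Cebpe was at -0.81. The call of Csf3r against 14 months was kept with only the arrays compared (adjusted p = 3.72e-05 in limma). Cebpe also lost its call without chow array 1 of the 6-month mice, at -0.79, or 18-month array 1, at -0.98, and Csf3r without 6-month chow array 2, at -0.97, or 18-month array 3, at -1.16.

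Between 14 and 18 months Csf3r was the 1 gene of the 32 that was called (1.81% of all probe sets), although for 18 genes the 18-month arrays all lay below the 14-month arrays, against 19.5% of all probe sets. Cxcr2 had 9.92, 9.76 and 9.56 at 18 months and 11.18, 10.85 and 11.15 at 14 months, and missed the threshold at -1.31 ± 0.61 (adjusted p = 0.197). This SE too takes in the spread of Cxcr2 in epididymal arrays. Of the 17 other mature neutrophil genes 5 were lower and none higher, namely Cxcr1 at -1.16, the complement receptor C5ar1 at -1.09, the selectin ligand Selplg at -1.04, the lectin receptor Clec4d at -1.19 and Bst1 at -1.24. Of 11 further granule and oxidase genes 2 were lower, the protease inhibitor Slpi at -1.20 and the metalloprotease Adam8 at -1.11. Of 12 progenitor and regulator genes 1 was lower, Cebpb, at -1.20. The primary granule genes had a median difference of 0.20, with none called. The erythroid list mean was 11.08, 11.13 and 10.93 at 18 months and 10.14, 10.39 and 10.39 at 14 months, higher in all 18-month arrays, and the B cell list mean was 8.15, 7.85 and 8.25 at 18 months and 9.06, 9.08 and 9.37 at 14 months, lower in all. Their part in these differences was not tested.

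**Figure D3:**
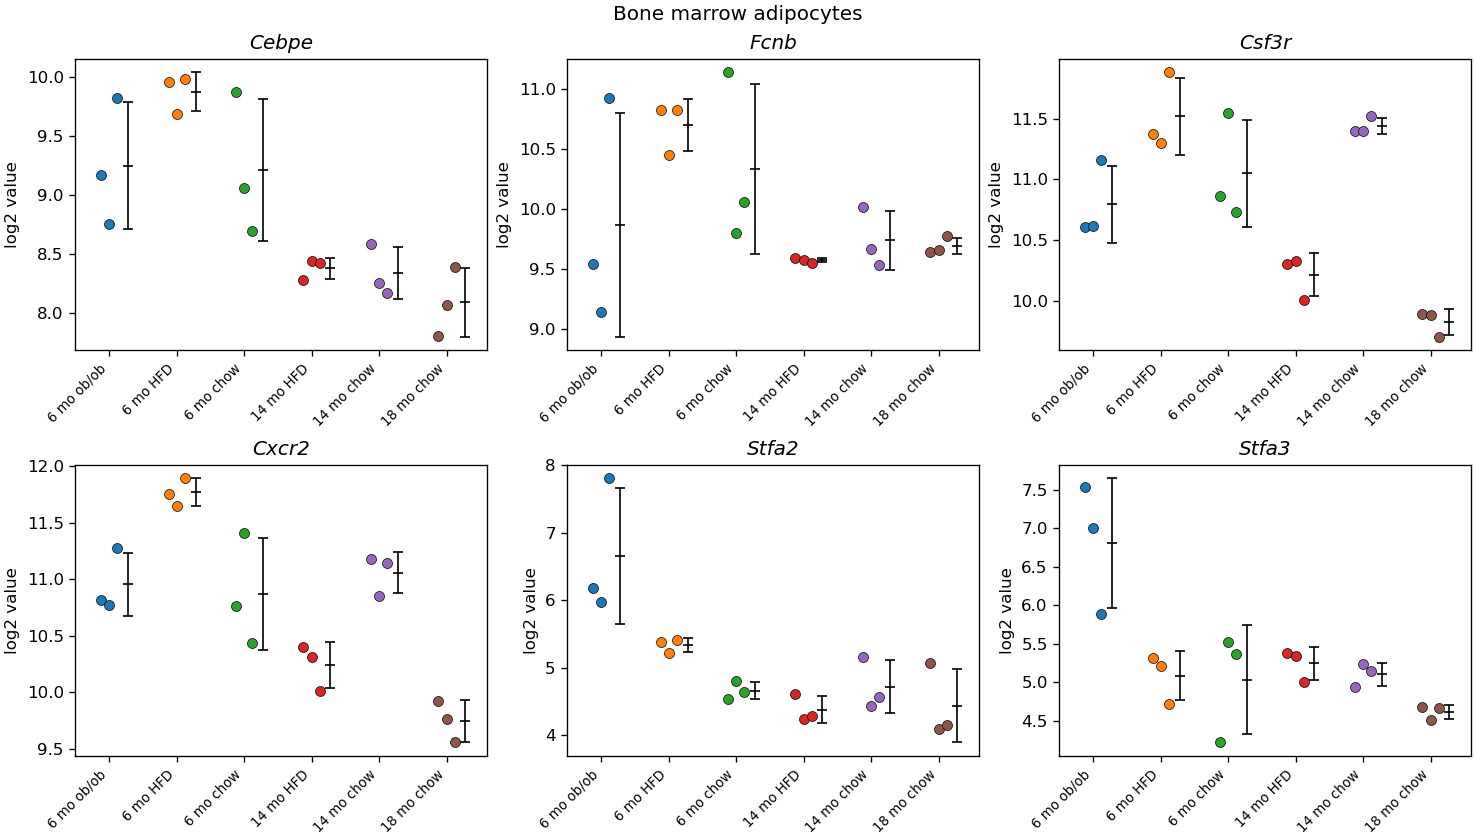
Log2 value (y axis) of Cebpe, Fcnb, Csf3r, Cxcr2, Stfa2 and Stfa3 in bone marrow arrays of the 6 conditions (x axis), with dots for arrays and bars for the mean ± SD (n = 3). Csf3r and Cxcr2 are lowest at 18 months and in 14-month HFD mice, and Stfa2 and Stfa3 are highest in ob/ob mice.

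In epididymal cells most of these genes were near the lower end of their range, and single arrays carried much higher values. In array 1 of 6-month chow mice 27 of 32 genes were the highest of the 3 arrays, against 37.8% of all probe sets. Of the 32 genes 23 exceeded the mean of the other 2 by 1 unit or more, against 0.636% of all probe sets. The median excess was 1.81 and the largest was 5.32, for Ngp. By stage the median excess was 1.65 in the primary granule, 2.59 in the secondary granule, 2.57 in the gelatinase granule and 1.43 in the mature cell. In array 1 of ob/ob mice 27 genes were likewise the highest of 3, against 44.5% of all probe sets. Here 18 genes exceeded the other arrays by 1 unit or more, against 1.10% of all probe sets. Here the median excess was 0.89, 1.36, 2.24 and 1.81 over the 4 stages in order, and the largest was 3.59, for Cxcr2. In every other epididymal array the median excess lay between -0.96 and 0.31.

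The mean of the erythroid genes was also highest in these arrays of their groups. The list mean of 6 erythroid genes was 6.65, 5.98 and 5.65 in ob/ob arrays, 5.57, 5.45 and 5.41 in HFD arrays and 7.46, 5.83 and 6.0 in chow arrays at 6 months, so that array 1 was the highest of its group in both chow and ob/ob mice. In 14-month chow array 2 the erythroid mean was 6.08, against 5.54 and 5.69 in arrays 1 and 3, with a median excess of -0.004 over the 32 genes. The list means of proliferation and of eosinophil, basophil and mast cell genes were highest in 6-month chow array 1 but lowest in ob/ob array 1 of their groups. The part of these lists in the granule gene values was not tested. The calls within epididymal cells that rest on these arrays are given with and without them, and the spans of group means only with them.

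**Figure D4:**
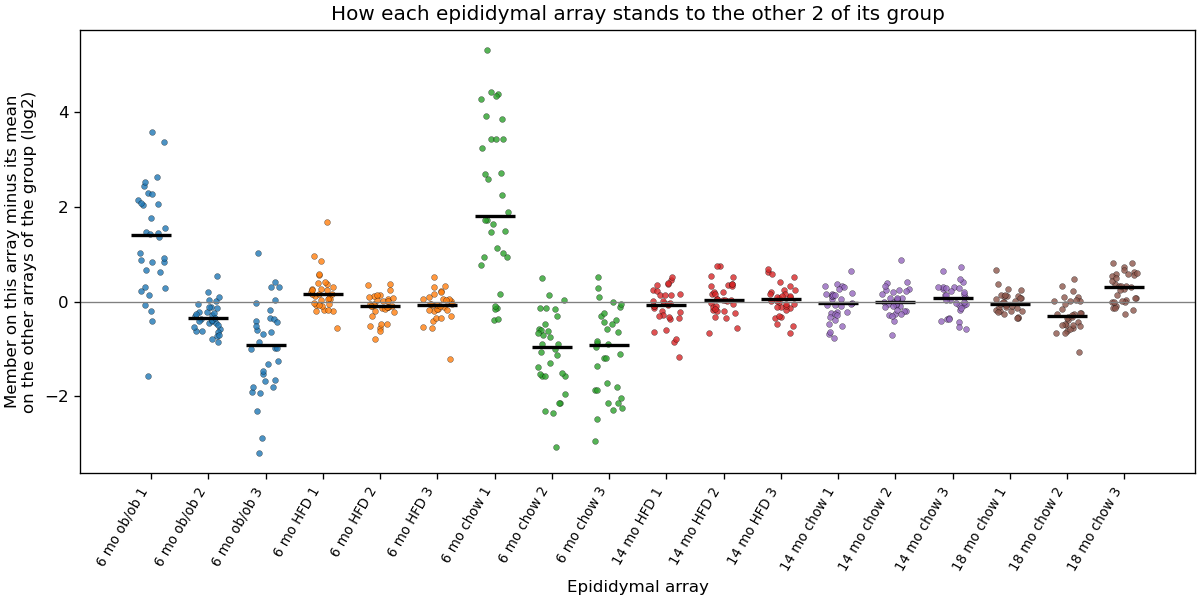
Log2 value of each of the 32 genes on an array minus its mean on the other 2 arrays of the group (y axis), for the 18 epididymal arrays (x axis, by group). Dots are genes and lines are medians. The medians of 6-month chow array 1, at 1.81, and of ob/ob array 1, at 1.40, stand above those of all other epididymal arrays, which lie between -0.96 and 0.31.

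In epididymal cells at 6 months, 1 gene was higher on the HFD and 10 were lower, against 14.6% of all probe sets called (9.41% higher and 5.21% lower). The median of the 32 genes was -1.01, against -0.11 over all probe sets. The gene that rose was Cybb, with values of 12.30, 12.27 and 12.21 in HFD and 9.60, 8.03 and 7.71 in chow arrays. The groups did not overlap, and the difference of 3.82 ± 0.35 (adjusted p = 1.27e-09) corresponded to 14.1-fold. Cyba, the partner subunit of Cybb, rose by 4.16, the oxidase subunits Ncf1 by 2.30 and Ncf4 by 2.65, and the lysozyme gene Lyz2 by 3.04, so that 5 of 11 further granule and oxidase genes were higher, Adam8 included, and none lower. Of the 17 other mature neutrophil genes 9 were higher, among them Itgam at 3.01 and Fcgr4 at 3.32, and 2 were lower, the receptor Trem1 at -1.26 and Wfdc21 at -1.29. Spi1 rose by 5.23. The list mean of 10 macrophage genes was 11.06, 11.03 and 11 in HFD and 7.77, 7.86 and 7.75 in chow arrays, with 9 of the 10 called higher, and 3 of 6 erythroid genes were lower. Their part in the values of Cybb and of the granule genes was not tested.

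Prtn3 was lower on the HFD in every array, with 6.0, 5.09 and 5.78 in HFD and 8.24, 7.40 and 7.53 in chow arrays, a difference of -2.10 ± 0.28 (adjusted p = 7.72e-07). It fell further than any other primary granule gene, and the other member of that stage that was called was Ctsg, with 4.57, 4.42 and 4.55 in HFD and 6.88, 5.07 and 5.40 in chow arrays (-1.27 ± 0.32, adjusted p = 0.0019). Of the secondary granule genes 5 were lower. Ngp had 6.66, 5.22 and 4.73 in HFD and 11.12, 6.0 and 5.60 in chow arrays, which overlapped, and a difference of -2.04 ± 0.82 (adjusted p = 0.0494). Ltf had 5.46, 5.13 and 4.99 in HFD and 10.58, 6.32 and 5.96 in chow arrays (-2.43 ± 0.67, adjusted p = 0.00477). Chil3 had 4.19, 3.18 and 3.27 in HFD and 8.68, 4.32 and 4.24 in chow arrays (-2.20 ± 0.70, adjusted p = 0.013). In each of these 3 genes the chow mean was raised by array 1, which lay over 4 units above the other chow arrays. Camp had 5.79, 5.69 and 5.56 in HFD and 9.28, 6.12 and 5.56 in chow arrays (-1.30 ± 0.48, adjusted p = 0.032). Pglyrp1, a peptidoglycan-binding protein of the granules, had 5.76, 5.27 and 6.03 in HFD and 9.11, 6.28 and 6.50 in chow arrays (-1.61 ± 0.43, adjusted p = 0.00381). In the mature cell Retnlg, a resistin-like secreted protein, had 5.50, 5.32 and 4.88 in HFD and 10.55, 6.27 and 6.27 in chow arrays, a difference of -2.46. Ly6g had 4.36, 4.32 and 3.78 in HFD and 8.71, 4.04 and 5.54 in chow arrays, a difference of -1.94. Mcemp1, a transmembrane protein first described in mast cells, had 5.41, 5.18 and 5.12 in HFD and 7.52, 5.87 and 5.73 in chow arrays, a difference of -1.14.

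Without chow array 1, 2 genes were higher on the HFD and 3 were lower (14.8% of all probe sets), and 2 of these 5 were among the 11 called with it. Cybb was then at 4.39 and Prtn3 at -1.84. Csf3r at 1.14 was newly higher, and Cebpe at -1.08 and Stfa3 at -1.10 were newly lower. Stfa3 lay between 3.52 and 4.90 in all epididymal arrays, below the median of all values, 5.81. Csf3r had values of 6.52, 6.66 and 6.51 in HFD and 6.37, 5.54 and 5.31 in chow arrays, all HFD arrays being higher. With a term for the set of 8 arrays 7 genes were called, of which 4 were among the 11, and Mcemp1 was at 0.15. The term is estimated from bone marrow arrays, so these values do not separate the set from the HFD. With only the arrays compared, Prtn3, Ctsg, Cybb and Mcemp1 were called. Single HFD arrays mattered as well, since Camp and Mcemp1 lost their calls without any 1 of them, Ngp without array 2 or 3, Chil3 without array 2 and Ly6g without array 3.

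The ob/ob genotype was set against chow in epididymal cells at 6 months, and 3 genes were higher and 1 lower, against 9.77% of all probe sets called. Lcn2, which encodes lipocalin 2, a siderophore-binding protein that adipocytes also secrete, had values of 12.94, 11.91 and 11.10 in ob/ob and 11.85, 8.51 and 8.31 in chow arrays. Chow array 1 lay within the ob/ob range and the other chow arrays far below it, and the difference was 2.43 ± 0.51 (adjusted p = 0.000462). Cybb had 10.27, 11.68 and 12.01 in ob/ob arrays, above all chow arrays (2.88 ± 0.35, adjusted p = 2.43e-07). Csf3r had 8.39, 6.99 and 6.69 in ob/ob arrays, also above all chow arrays (1.62 ± 0.30, adjusted p = 0.000131). Prtn3 was the gene that was lower, at 6.57, 5.79 and 5.58 in ob/ob against 8.24, 7.40 and 7.53 in chow arrays (-1.74 ± 0.28, adjusted p = 1.78e-05), with no overlap. Of the 17 other mature neutrophil genes 10 were higher and none lower, Itgam at 3.09 and Itgb2 at 3.10 among them. With only the arrays compared, the call of Lcn2 was lost (adjusted p = 0.0581). The macrophage list mean was 10.17, 10.95 and 11.14 in ob/ob arrays, against 7.77, 7.86 and 7.75 in chow arrays, with 9 of 10 genes called higher. Of the 5 monocyte genes 4 were higher, of the 5 T cell genes 3, and of the 9 adipocyte genes 4 were lower. Their part in these differences was not tested.

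Leaving out chow array 1 turned this comparison into 11 genes higher and 1 lower (10.4% of all probe sets). The higher genes were then Lcn2 at 3.57, Cybb at 3.45, Chil3 at 2.70, S100a8 at 2.68, Cxcr2 at 2.23, Ngp at 2.14, Retnlg at 2.02, Csf3r at 1.93, S100a9 at 1.68, Mmp8 at 1.13 and Ltf at 1.05, and Prtn3 remained lower at -1.49. S100a8 and S100a9 encode the subunits of calprotectin, the main cytosolic protein of neutrophils. S100a8 had values of 9.57, 7.91 and 7.09 in ob/ob and 9.86, 5.43 and 5.60 in chow arrays, so that the ob/ob values lay above chow arrays 2 and 3 but not above chow array 1. Without ob/ob array 1 the same 4 genes were called as with all arrays.

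Against the HFD, 9 genes were higher in ob/ob epididymal cells and none lower (10.1% of all probe sets called). Chil3 had 8.50, 6.73 and 5.71 in ob/ob and 4.19, 3.18 and 3.27 in HFD arrays (3.43 ± 0.70, adjusted p = 0.000363). Lcn2 had 12.94, 11.91 and 11.10 in ob/ob and 8.86, 8.88 and 9.20 in HFD arrays (3.0 ± 0.51, adjusted p = 4.54e-05), and Retnlg had 10.55, 7.97 and 6.37 in ob/ob and 5.50, 5.32 and 4.88 in HFD arrays (3.06 ± 0.74, adjusted p = 0.00207). In all 3 genes every ob/ob array was above every HFD array, with array 1 the highest. Cxcr2 had 9.04, 6.38 and 4.51 in ob/ob and 4.31, 3.94 and 4.17 in HFD arrays, a difference of 2.50. The others were S100a8 at 2.57, Ngp at 2.40, Ltf at 2.0, Pglyrp1 at 1.68 and Mcemp1 at 1.64. Pglyrp1 had 8.28, 7.30 and 6.53 and Mcemp1 8.26, 6.46 and 5.90 in ob/ob arrays, against the HFD values given above, and of 6 erythroid genes 2 were called higher, whose part was not tested. Without ob/ob array 1, Lcn2, Chil3, Pglyrp1, S100a8 and Retnlg were called. Ngp and Ltf also lost their calls without HFD array 2 or 3, and Cxcr2 when only the arrays compared were fitted (adjusted p = 0.068). With a term for the set of 8 arrays, which held all 3 HFD arrays, 4 genes were higher, Lcn2 at 2.88, Ctsg at 1.62, Cebpe at 1.53 and Fcnb at 1.33, and Stfa3 was lower at -1.01, so that 1 of the 9 calls was kept. Here too the term is estimated from bone marrow arrays and cannot separate the set from the HFD. Spi1 differed by -2.29 in ob/ob against HFD arrays and by 2.94 in ob/ob against chow arrays.

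At 14 months the HFD changed 1 of the 32 genes in epididymal cells, against 3.57% of all probe sets called. Mmp9, gelatinase B, had values of 5.57, 5.44 and 5.41 in HFD and 7.73, 7.68 and 7.52 in chow arrays, with no overlap and a difference of -2.17 ± 0.45 (adjusted p = 0.00134). At 6 months Mmp9 was at 8.65, 6.93 and 5.48 in ob/ob, 6.03, 5.85 and 5.90 in HFD and 8.28, 6.35 and 6.43 in chow arrays and was not called for diet or genotype within epididymal cells of that age. Cybb, in contrast to its rise at 6 months, had 10.09, 10.05 and 10.23 in HFD and 10.61, 10.04 and 9.89 in chow arrays at 14 months, overlapping values with a difference of -0.06 ± 0.35 (adjusted p = 0.951). The macrophage list mean was 9.56, 9.65 and 9.68 in HFD and 10.06, 9.57 and 9.45 in chow arrays, with 1 of 10 genes called higher and 1 lower. The monocyte list mean was 7.33, 7.18 and 7.12 in HFD and 9.58, 9.18 and 9.07 in chow arrays, lower in every HFD array with 4 of 5 genes called lower. Of the 7 B cell and the 5 T cell genes 3 each were lower. Their part in the difference of Mmp9 was not tested.

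Age in epididymal cells of chow mice was compared first at 14 against 6 months, where 1 gene was higher and 5 were lower (4.53% of all probe sets called). Cybb rose by 1.73 ± 0.35 (adjusted p = 0.000701), with the macrophage list mean at 10.06, 9.57 and 9.45 at 14 months and 7.77, 7.86 and 7.75 at 6 months and 9 of its 10 genes called higher. Prtn3, with 5.99, 5.91 and 6.22 at 14 months, differed by -1.68 ± 0.28 (adjusted p = 7.21e-05). Ngp at -2.62, Ltf at -2.20, Chil3 at -2.04 and Mmp8, neutrophil collagenase, at -1.61 were the others. Mmp8 had 4.40, 4.33 and 3.79 at 14 months and 7.94, 4.76 and 4.64 at 6 months. Without chow array 1 of the 6-month mice only Prtn3 at -1.42 and Cybb at 2.31 were called, and the same 2 were called when only the arrays compared were fitted. Ltf, Chil3 and Mmp8 also lost their calls without any 1 of the 14-month arrays, and Ngp without 14-month array 1 or 3. On the HFD, Cybb at -2.14 and Csf3r at -1.18 were lower at 14 than at 6 months and none of the 32 was higher (11.3% of all probe sets called). The macrophage list mean was 9.56, 9.65 and 9.68 at 14 months and 11.06, 11.03 and 11 at 6 months on the HFD, with 8 of 10 genes called lower. The part of the macrophage genes in the differences of Cybb was not tested. With the term for the set of 8 arrays Cybb was kept at -2.14, Csf3r was lost, and Cebpe at 1.37 and Fcnb at 1.07 were called higher. That term is estimated from bone marrow arrays and cannot separate the set from age in these HFD mice.

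In epididymal cells of 18-month mice 8 genes were higher than in those of 14-month mice and 2 were lower, against 6.18% of all probe sets called (1.33% higher and 4.85% lower). By stage, 3 of 13 secondary granule genes were higher and 1 was lower (median 0.22), 1 of 2 gelatinase granule genes was higher and 1 lower, and 4 of 12 genes of the mature cell were higher (median 0.31). Ngp had values of 8.70, 8.42 and 9.38 at 18 months and 4.60, 5.53 and 4.72 at 14 months, a difference of 3.88 ± 0.76 (adjusted p = 0.000238), or 14.7-fold. Ltf had 7.67, 7.51 and 8.22 at 18 months and 5.40, 5.37 and 5.49 at 14 months (2.38 ± 0.63, adjusted p = 0.00506). Chil3 had 6.40, 5.90 and 6.73 at 18 months and 3.75, 3.23 and 4.14 at 14 months (2.63 ± 0.65, adjusted p = 0.00279). All 18-month arrays lay above all 14-month arrays in these genes, and the 3 arrays of each age lay within 1 unit of each other.

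The cytosolic and surface genes that were called did not overlap between the ages either. S100a9 had 7.94, 7.05 and 7.49 at 18 months and 4.55, 5.03 and 4.72 at 14 months (2.73 ± 0.60, adjusted p = 0.000818). S100a8 had 8.01, 7.65 and 7.81 at 18 months and 5.88, 5.83 and 5.32 at 14 months (2.15 ± 0.61, adjusted p = 0.0091). Retnlg had 8.06, 7.86 and 8.70 at 18 months and 5.98, 5.82 and 5.87 at 14 months (2.32 ± 0.70, adjusted p = 0.0138). Ly6g, the surface protein used to identify mouse neutrophils, had 6.08, 6.10 and 6.60 at 18 months and 3.77, 4.32 and 4.78 at 14 months (1.97 ± 0.64, adjusted p = 0.0233). Mmp8 had 5.61, 5.49 and 6.37 at 18 months (1.65 ± 0.51, adjusted p = 0.0176). No primary granule gene was called at a 2-fold change, with differences of 0.02 to 1.10 over the 5 genes. Leaving out any 1 array gave between 7 and 9 calls. Those lost were Retnlg without 18-month array 3 (2.07, adjusted p = 0.064), Ly6g without 14-month array 1 or 2 or 18-month array 3 (1.71 to 1.98), and Mmp8 without 14-month array 3 or 18-month array 3 (1.38 to 1.46).

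The 2 genes that were lower at 18 than at 14 months in epididymal cells were Cybb, with 7.31, 7.18 and 7.69 at 18 months and 10.61, 10.04 and 9.89 at 14 months (-2.79 ± 0.33, adjusted p = 7.1e-08), and Mmp9, with 6.48, 6.08 and 6.84 at 18 months and 7.73, 7.68 and 7.52 at 14 months (-1.18 ± 0.43, adjusted p = 0.0468). The call of Mmp9 was lost without any 1 of the 14-month arrays and without 18-month array 1 or 2 (-1.24 to -0.99). Of the 17 other mature neutrophil genes 10 were lower and none higher, among them the integrin subunits Itgam at -2.54 and Itgb2 at -2.67 and the receptors Fcgr3 at -2.51 and C5ar1 at -2.86. These 4 genes are expressed in macrophages as well. The macrophage list mean was 6.74, 6.71 and 6.70 at 18 months and 10.06, 9.57 and 9.45 at 14 months, with 9 of 10 genes called lower, and 4 of 5 monocyte and 3 of 5 T cell genes were lower as well. Their part in the lower values was not tested. The erythroid list mean was 5.60, 5.41 and 5.46 at 18 months and 5.54, 6.08 and 5.69 at 14 months, overlapping values, with none of the 6 genes called higher and 1 lower.

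Against 6 months, 18-month epididymal cells differed in 1 of 32 genes (2.36% of all probe sets called), Cybb, at -1.05 ± 0.33 (adjusted p = 0.0284), and this call was lost without 6-month chow array 1, at -0.48, or without 18-month array 1 or 2, at -1.01 and -0.95, and when only the arrays compared were fitted (adjusted p = 0.0874). Without chow array 1 of the 6-month mice 9 genes were higher and none lower (2.9% of all probe sets). Ngp was then at 3.03, S100a9 at 2.42, S100a8 at 2.31, Chil3 at 2.06, Retnlg at 1.94, Ltf at 1.66, Ly6g at 1.47, and Camp and Mmp8 at 1.12 each. The Ngp values were 11.12, 6.0 and 5.60 at 6 months, 4.60, 5.53 and 4.72 at 14 months and 8.70, 8.42 and 9.38 at 18 months. The 18-month arrays thus lay above every 14-month array and above 6-month arrays 2 and 3, but below 6-month array 1.

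**Figure D5:**
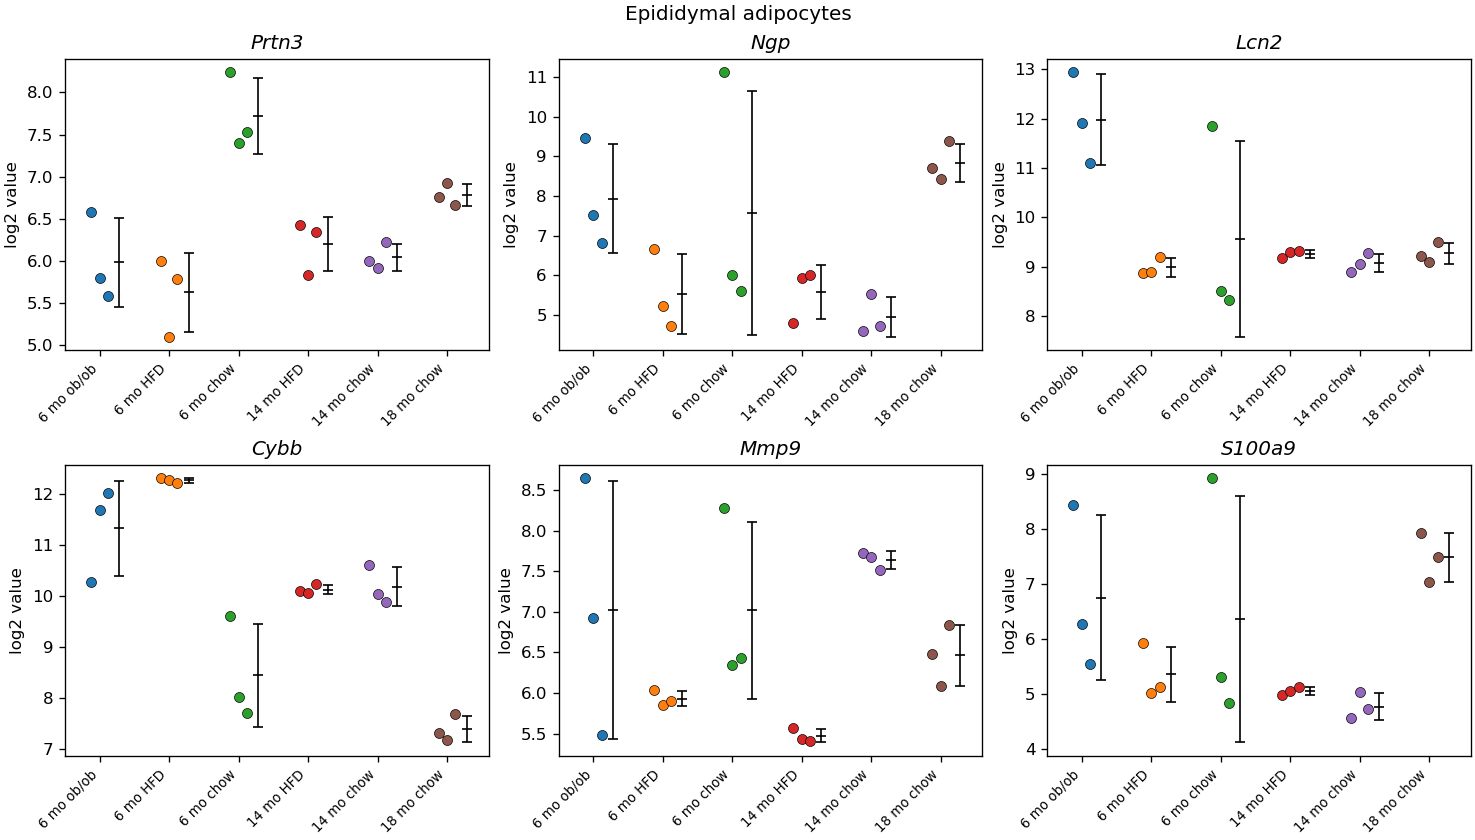
Log2 value (y axis) of Prtn3, Ngp, Lcn2, Cybb, Mmp9 and S100a9 in epididymal arrays of the 6 conditions (x axis), with dots for arrays and bars for the mean ± SD (n = 3). Array 1 of 6-month chow mice lies far above the other chow arrays of that age for Ngp, Lcn2 and S100a9, Prtn3 is highest in 6-month chow mice, and Cybb is highest in 6-month HFD mice and lowest at 18 months.

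Genes of neutrophil retention, release and recruitment were measured in the same epididymal arrays, and the 9 of them did not move as a group. At 6 months 5 were higher on the HFD than on chow and none lower (14.6% of all probe sets called), namely Icam1 at 2.62, Itga4 at 2.53, Vcam1 at 1.52, Cxcr4 at 1.51 and Cxcl2 at 1.70. The first 3 are adhesion molecules, Cxcr4 is the receptor that holds neutrophils in marrow, and Cxcl2 is a chemokine that binds Cxcr2. In ob/ob against chow cells 5 were higher (Itga4 at 2.67, Cxcl5 at 2.40, Cxcl12 at 1.89, Vcam1 at 1.80 and Cxcr4 at 1.13) and 2 lower (Cxcl1 at -3.83 and Cxcl2 at -2.65), against 9.77% of all probe sets called. In ob/ob against HFD cells 2 were higher (Cxcl12 at 1.58 and Cxcl5 at 1.41) and 3 lower (Cxcl2 at -4.36, Cxcl1 at -3.28 and Icam1 at -2.33), against 10.1% of all probe sets. At 14 months the HFD gave 2 higher (Cxcl2 at 2.93 and Cxcl1 at 1.44) and 1 lower (Itga4 at -1.14), against 3.57% of all probe sets.

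With age on chow, 3 of the 9 were higher at 14 than at 6 months (Itga4 at 2.08, Vcam1 at 1.14 and Cxcr4 at 1.0) and 2 lower (Cxcl2 at -5.32 and Cxcl1 at -4.53), against 4.53% of all probe sets called. At 18 against 14 months 2 were higher (Cxcl2 at 2.75 and Cxcl1 at 2.72) and 3 lower (Itga4 at -2.84, Cxcr4 at -1.79 and Cxcl12 at -1.03), against 6.18% of all probe sets. At 18 against 6 months none was higher and 4 were lower (2.36% of all probe sets called), Cxcl2 at -2.58, Cxcl1 at -1.80, Il17ra at -1.48 and Icam1 at -1.22. On the HFD 7 were lower at 14 than at 6 months and none higher (11.3% of all probe sets called), from -4.10 for Cxcl2 to -1.06 for Cxcr4.

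The effects of diet and genotype were also compared between ages and between depots, as differences of differences. The effect of the HFD differed between 14 and 6 months for 1 of the 32 genes in bone marrow (2.82% of all probe sets called) and for 7 in epididymal cells (16.9%). It differed between bone marrow and epididymal cells for 6 genes at 6 months (10.7%) and for none at 14 months (4.02%), where 2 had an unadjusted p under 0.05 in limma. The effect of the ob/ob genotype differed between depots for 6 genes (10.8%). For Csf3r in bone marrow the diet effect was -1.23 at 14 months and 0.47 at 6 months, a difference of -1.69 whose call ended without array 3 of any of the 4 groups it rests on (adjusted p = 0.0507 to 0.077) and with the term for the set of 8 arrays (adjusted p = 0.0587). Cybb was called in 3 of these comparisons. Its HFD effect at 6 months was 0.14 in bone marrow and 3.82 in epididymal cells, and its ob/ob effect was -0.27 in bone marrow and 2.88 in epididymal cells.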

How the data were processed

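Processed values of 36 Affymetrix Mouse Gene 1.0 ST arrays were analysed. The authors deposited log2 values, 1 for each of 35556 probe sets and array, made with gcRMA background correction and quantile normalization in Partek Genomics Suite. The submitters' processing notes name RMA as well as GCRMA, and which of them made the values is not settled here. Values ranged from 1.93 to 14.6, were used as deposited and have a median of 5.81. Genes were named through GEO's platform annotation, under which 23410 probe sets have a symbol, 1621 of them several. A limma model (version 3.58.1, lmFit and eBayes, under R 4.3.3) of the group means took in 30 arrays (20 residual and 6.36 prior degrees of freedom), or all 36 for comparisons with 18-month mice, and p-values were adjusted by Benjamini-Hochberg over the 23410 probe sets. Each of the 32 genes is reported, with values in each array for those on which a result turns. The genes, lists and comparisons were chosen with earlier results of these data known. The lowest correlation within a group was 0.955 and no arrays were identical. Replicate numbers did not pair the arrays, since 3 of 18 pairs across depots deviated together (r over 0.1). Alternatives were quantile normalization, centring on array medians, other sets of arrays or probe sets, no fold minimum, a term for the set of 8 arrays, a block for the replicate number, and fits without each array in turn. Leaving out pairs of arrays was chosen after seeing the data. Promoters are from RefSeq (GRCm38.p6). 1 probe set that a gene of the 32 shares with another gene was not used.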

Additional observations from a re-analysis of the deposited data

Results flagged for a closer look

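The following differences of differences passed the same threshold as the calls (limma, adjusted p under 0.05 and at least 2-fold), so that the effect of diet or genotype itself differed between ages or depots. Each is given as the effect in 14-month minus that in 6-month mice, or as the effect in bone marrow minus that in epididymal cells. In bone marrow the effect of the HFD on Csf3r differed by -1.69 between ages, being -1.23 at 14 months and 0.47 at 6 months (1 of 32 genes, against 2.82% of all probe sets).

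In epididymal cells the HFD effect differed between ages in 7 of 32 genes, against 16.9% of all probe sets. Cybb differed by -3.87, its effect being -0.06 at 14 months and 3.82 at 6 months. Csf3r differed by -1.59 (-0.76 at 14 months and 0.82 at 6 months). Prtn3 differed by 2.26 (0.16 and -2.10 in the same order of ages), Ltf by 2.83 (0.40 and -2.43), Chil3 by 2.56 (0.36 and -2.20), Stfa3 by 1.26 (0.29 and -0.97) and Ms4a3 by 1.10 (0.13 and -0.97).

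At 6 months the HFD effect differed between bone marrow and epididymal cells in 6 genes, against 10.7% of all probe sets. Cybb differed by -3.68 (0.14 in bone marrow and 3.82 in epididymal cells). The others were positive, namely Pglyrp1 at 1.96, Mmp9 at 1.84, Cebpe at 1.61, Ctsg at 1.32 and Prtn3 at 1.29. At 14 months none of the 32 genes differed (4.02% of all probe sets), with 2 at an unadjusted p under 0.05 in limma.

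The effect of the ob/ob genotype differed between depots in 6 genes, against 10.8% of all probe sets. Stfa3 at 2.46 and Stfa2 at 1.98 had effects of 1.77 and 2.0 in bone marrow and of -0.68 and 0.02 in epididymal cells. Prtn3 differed by 1.30. Cybb at -3.14, Lcn2 at -2.50 and Csf3r at -1.87 had effects of -0.27, -0.08 and -0.25 in bone marrow and of 2.88, 2.43 and 1.62 in epididymal cells. Several of these rest on array 1 of epididymal 6-month chow. Without it the diet by age values of Ms4a3 (0.61), Ltf (1.35) and Chil3 (1.10), the diet by depot values of Prtn3 (1.03), Ctsg (0.77), Pglyrp1 (1.06) and Mmp9 (1.21) and the genotype by depot value of Prtn3 (1.05) were no longer called, and the other calls that it enters were kept. Of the 20 calls in all, 9 were kept without any 1 array, namely all 3 of Cybb, Csf3r in epididymal cells by age and by depot, Prtn3 by age, Cebpe by depot, and Stfa2 and Stfa3 by depot. Csf3r in bone marrow lost its call without array 3 of any of its 4 groups (-1.65 to -1.51, adjusted p = 0.0507 to 0.077). It kept its call with only the arrays compared (adjusted p = 0.0089 in limma). Of the 12 fits that each leave out 1 array, the call was lost in 10 for Mmp9, in 8 for Ctsg and for Chil3, in 7 for Ms4a3, in 4 for Prtn3 in either comparison of depots, in 3 for Stfa3 by age, and in 2 for Ltf, Pglyrp1 and Lcn2 each. With a term for the set of 8 arrays 13 of the 20 calls were kept. The term is estimated from bone marrow arrays, so where epididymal HFD arrays enter it cannot separate the set from the diet. No replicated group had more than 3 arrays, so single arrays were not tested as outliers.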

How the results depend on the processing

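Counts are of genes called among the 32. When only the arrays compared were fitted, the count was 0 in place of 2 for bone marrow ob/ob against chow and against HFD, 6 in place of 3 for bone marrow 14 against 6 months on HFD, 0 in place of 2 for bone marrow 18 against 6 months, 2 in place of 1 for bone marrow 18 against 14 months, 4 in place of 11 for epididymal HFD at 6 months, 2 in place of 6 for epididymal 14 against 6 months on chow, and 0 in place of 1 for epididymal 18 against 6 months. It was 4 in place of 1 for diet by age in bone marrow, 4 in place of 7 for diet by age in epididymal cells, 1 in place of 0 for diet by depot at 14 months and 3 in place of 6 for genotype by depot. With no fold minimum it was 1 in place of 0 for bone marrow 14 against 6 months on chow, 5 in place of 3 on HFD, 2 in place of 1 for bone marrow 18 against 14 months, 17 in place of 11 for epididymal HFD at 6 months, 2 in place of 1 at 14 months, 14 in place of 9 for epididymal ob/ob against HFD, 4 in place of 2 for epididymal 14 against 6 months on HFD, 2 in place of 1 for epididymal 18 against 6 months, and 1 in place of 0 for diet by depot at 14 months. With a term for the set of 8 arrays it was 1 in place of 2 for bone marrow ob/ob against HFD and for bone marrow 18 against 6 months, 7 in place of 11 for epididymal HFD at 6 months and 5 in place of 9 for epididymal ob/ob against HFD. In the epididymal comparisons the term, estimated from bone marrow arrays, cannot separate the set from the diet. That term reversed 3 values, Fcnb in bone marrow at 14 against 6 months on HFD to 0.27, Mcemp1 in epididymal HFD at 6 months to 0.15, and the diet by age interaction of Stfa3 in epididymal cells to -0.046. Quantile normalization and centring on the array median each gave 0 in place of 1 for epididymal 18 against 6 months, and all probe sets gave 3 in place of 6 for epididymal 14 against 6 months on chow. Leaving out bone marrow chow array 1 and ob/ob array 3 gave 1 in place of 2 for bone marrow 18 against 6 months. Leaving out epididymal chow array 1 and ob/ob array 1 gave 6 for epididymal HFD at 6 months, 8 for ob/ob against chow, 3 for 14 against 6 months on chow and 9 for 18 against 6 months. The cause of these shifts was not tested.

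Leaving out 1 array gave counts of 0 to 0 for bone marrow HFD at 14 months, 2 to 3 for bone marrow ob/ob against HFD, 0 to 1 for bone marrow 14 against 6 months on chow, 2 to 4 on HFD, 1 to 2 for bone marrow 18 against 6 months, 5 to 20 for epididymal HFD at 6 months, 4 to 12 for epididymal ob/ob against chow, 5 to 16 against HFD, 2 to 14 for epididymal 14 against 6 months on chow and 0 to 9 for epididymal 18 against 6 months. It gave 0 to 1 for diet by age in bone marrow, 4 to 15 in epididymal cells, 2 to 11 for diet by depot at 6 months and 5 to 8 for genotype by depot. With a replicate block the count was 13 in place of 11 for epididymal HFD at 6 months, and the block changed no call beyond 1.5 times in any comparison.

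Of the changes tried on the values of named genes, 1081 kept direction and call, 216 lost the call and 3 reversed. These values were all chosen as called in the main fit. The tally includes the 75 values with no fold minimum, which could not lose their calls. Centring on array medians moved the median of all probe sets by over 0.1 in some comparisons within a depot, by 0.26 for epididymal 18 against 14 months, 0.18 for 18 against 6 months, 0.15 for HFD at 14 months, and by -0.11 and -0.12 for ob/ob against chow and HFD.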
